A study of Mus musculus with 23 samples.

Results

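The nuclear pore and nuclear transport genes were the genes whose symbol in the array annotation is Nup, Kpna, Ipo, Xpo or Tnpo followed by a number (or Xpot), or is Kpnb1, Ran, Rangap1, Ranbp1, Ranbp2, Rcc1, Tpr, Ndc1, Pom121, Seh1l or Cse1l. This rule found 46 of the 12393 genes on the array, read by 95 probe sets, and all 46 were among the 11164 genes bright enough to be tested. Tpr, Nup205, Nup35 and Nup214 had no probe set of their own symbol alone and were not analysed here. RNA of mouse gastrocnemius muscle was measured on 23 Affymetrix arrays in a study of staged muscle degeneration and regeneration in mice without emerin or without lamin A/C, the nuclear envelope proteins affected in Emery-Dreifuss muscular dystrophy. The control group had 2 arrays on each of day 0, day 3 and day 4. The emerin KO (knockout) group had 2 arrays on day 0 and 3 arrays on each of day 3 and day 4, and the lamin A/C KO group had 3 arrays on each day. Day 0 muscle of the control and emerin KO mice is described as not injected, and that of the lamin A/C KO mice as taken 0 days after the injection. The titles tie all 6 control arrays to the lamin A line. The emerin KO arrays therefore have no control named for their own line, and a difference between lines cannot be told apart from the emerin knockout. The genotype of control day 4 replicate 2 comes from its title alone. The injected agent, the age and the strain of the mice are not given in the sources used here. Whether the arrays of a group came from separate animals is not given, so each p-value here rests on array-to-array spread, which may be technical.

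The nuclear pore is a large ring of nucleoporins set into the nuclear envelope, with a Y-shaped complex building its outer rings, an inner ring, a central channel lined with disordered repeats, membrane anchors, cytoplasmic filaments and a nuclear basket. Import receptors of the importin beta family carry cargo inward, often through an importin alpha adaptor that reads the nuclear localisation signal, and exportins carry cargo outward. Direction comes from the small GTPase Ran, which is kept in its GTP form inside the nucleus by the chromatin-bound exchange factor RCC1 and in its GDP form outside by RanGAP1. The pore also sits beside the lamina and emerin, which is why it is of interest in muscle lacking these proteins.

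The labelled tissue and genotypes were checked first. All 7 myofiber markers (such as Acta1, Ckm and Myh4) were well measured, with a summed signal of 158681 to 208230 over the day 0 arrays of the 3 genotypes. Lmna, the gene of lamin A/C, averaged 61.1 to 77.8 in the 3 lamin A/C KO groups and 682 to 4504 elsewhere. Emd, the gene of emerin, averaged 207 to 418 in the 3 emerin KO groups and 678 to 797 elsewhere. The ratio of the 3' to the 5' Gapdh control probe sets, a measure of RNA quality, was 3.62 to 6.09 on the emerin KO day 3 arrays and 1.40 to 5.30 on those of day 4. The other 7 groups had ratios of 0.822 to 1.64.

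Promoter sequence was looked at because several members moved together. Promoter windows from 250 bases before to 50 bases after the gene start (RefSeq, GRCm38.p6) were found for 37 of the 46 members. Shown here are the 150 bases before the start of Kpna2 and Ranbp1, which rose from day 0 in all 3 genotypes, and of Kpna4, the one importin alpha gene with a fall that had a window. They are written 5' to 3' on the gene's strand, with matches to the searched motifs in capitals.
Kpna2, chr11:106999526-106999675, minus strand: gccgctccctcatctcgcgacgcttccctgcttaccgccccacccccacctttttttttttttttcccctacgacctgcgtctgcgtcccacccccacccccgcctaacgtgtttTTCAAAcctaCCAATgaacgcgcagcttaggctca
Ranbp1, chr16:18248695-18248844, minus strand: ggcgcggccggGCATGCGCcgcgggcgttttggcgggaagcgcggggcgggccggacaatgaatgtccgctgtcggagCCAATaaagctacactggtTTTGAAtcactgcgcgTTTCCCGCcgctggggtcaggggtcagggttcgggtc
Kpna4, chr3:69127093-69127242, minus strand: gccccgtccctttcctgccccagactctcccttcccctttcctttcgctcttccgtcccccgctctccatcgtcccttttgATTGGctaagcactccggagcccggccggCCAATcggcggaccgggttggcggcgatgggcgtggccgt
In Kpna2 the capitals mark a cell cycle homology element (CHR, TTTGAA on the other strand) at -35 from the start and a CCAAT box at -25, and a further CCAAT box lay at 7. In Ranbp1 they mark the NRF1 form GCATGCGC at -139, a CCAAT box at -72, the CHR at -53 and the E2F form TTTCCCGC at -37. In Kpna4 both are CCAAT boxes, at -69 (on the other strand) and at -40. Both strands of every window were searched, and no match in the printed stretches overlapped another. NRF1 matches were held by 7 of the 37 members with a window (18.9%: Nup107, Nup50, Nup62, Ran, Ranbp1, Rcc1 and Xpo5), beside 3.05% of 27025 genes with a window. Of those 7, 6 were among the 19 members with a window that rose in at least 1 comparison with day 0, none of the 6 that fell held one, and 1 was among the 12 called in neither direction. The E2F forms (TTTCCCGC, TTTCGCGC or TTTGGCGC) were in 3 of 37 members (8.11%: Ipo7, Nup210 and Ranbp1) and 2.12% of genes, in 1 of the 19 that rose, 2 of the 6 that fell and 0 of the 12. The CHR was in 11 of 37 (29.7%) and 20.2% of genes, in 5, 1 and 5 members of these classes. The CCAAT box was in 18 of 37 (48.6%) and 41.1% of genes, in 11, 3 and 4 members. The ETS form CCGGAAGT was in 4 of 37 (10.8%) and 4.31% of genes, in 2, 0 and 2 members. These are counts of letters in a window, and binding was not measured.

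From day 0 to the regenerating muscle of day 3 and day 4, Ran, Ranbp1, Kpna2, Nup107 and Xpo6 rose in every genotype, and the importin alpha genes Kpna1 and Kpna3 fell in every genotype. In control on day 3, 13 of 46 members were higher and 4 lower (adjusted p under 0.05 in limma), beside 20.1% of all tested genes higher and 14.2% lower. In control on day 4 the counts were 12 and 5, beside 19.5% and 14.3%. In emerin KO on day 3 they were 14 and 11, beside 23.9% and 22.2%, and on day 4 they were 14 and 7, beside 23.5% and 20.8%. In lamin A/C KO on day 3 they were 18 and 5, beside 23.4% and 19.6%, and on day 4 they were 10 and 4, beside 21.0% and 18.2%. The count of members higher on day 3 was above that background in each genotype, and the count lower was below it in control and lamin A/C KO. No test of that excess was made. The median log2 difference of the 46 members on day 3 was 0.29 in control, 0.09 in emerin KO and 0.31 in lamin A/C KO, and that of all tested genes was 0.08, -0.08 and -0.08.

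Across these 6 comparisons, 5 members were higher in all 6 (Ran, Ranbp1, Nup107, Kpna2 and Xpo6), 2 were lower in all 6 (Kpna1 and Kpna3), 13 were called in none, and none was called in opposite directions. The 2 comparisons within a genotype share its day 0 arrays. Scaling each array to its median moved the median of all genes by -0.11 in control on day 3, and the member counts there were then 9 higher and 5 lower, beside 16.0% and 15.8% of all genes. On day 4 in control they became 9 and 6, beside 16.2% and 15.2%. When control day 0 replicate 1 was left out, 11 members were called in control on day 3, all among the 17, beside 26.4% of all genes.

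Several genes have more than 1 probe set, and the brightest was used. With the mean of all sets, 15 members were called in control on day 3, 12 of them among the 17, beside 32.8% of all genes. In emerin KO and lamin A/C KO on day 3 the counts were 25 (22 shared) and 23 (19 shared), beside 43.6% and 41.7%. Ran was then no longer called in control on day 3 (0.31, adjusted p 0.093) or day 4 (0.11, 0.60) or in lamin A/C KO on day 4 (0.13, 0.40), and Kpna6 was not called in control on day 3 (-0.41, 0.052).

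**Figure D1:**
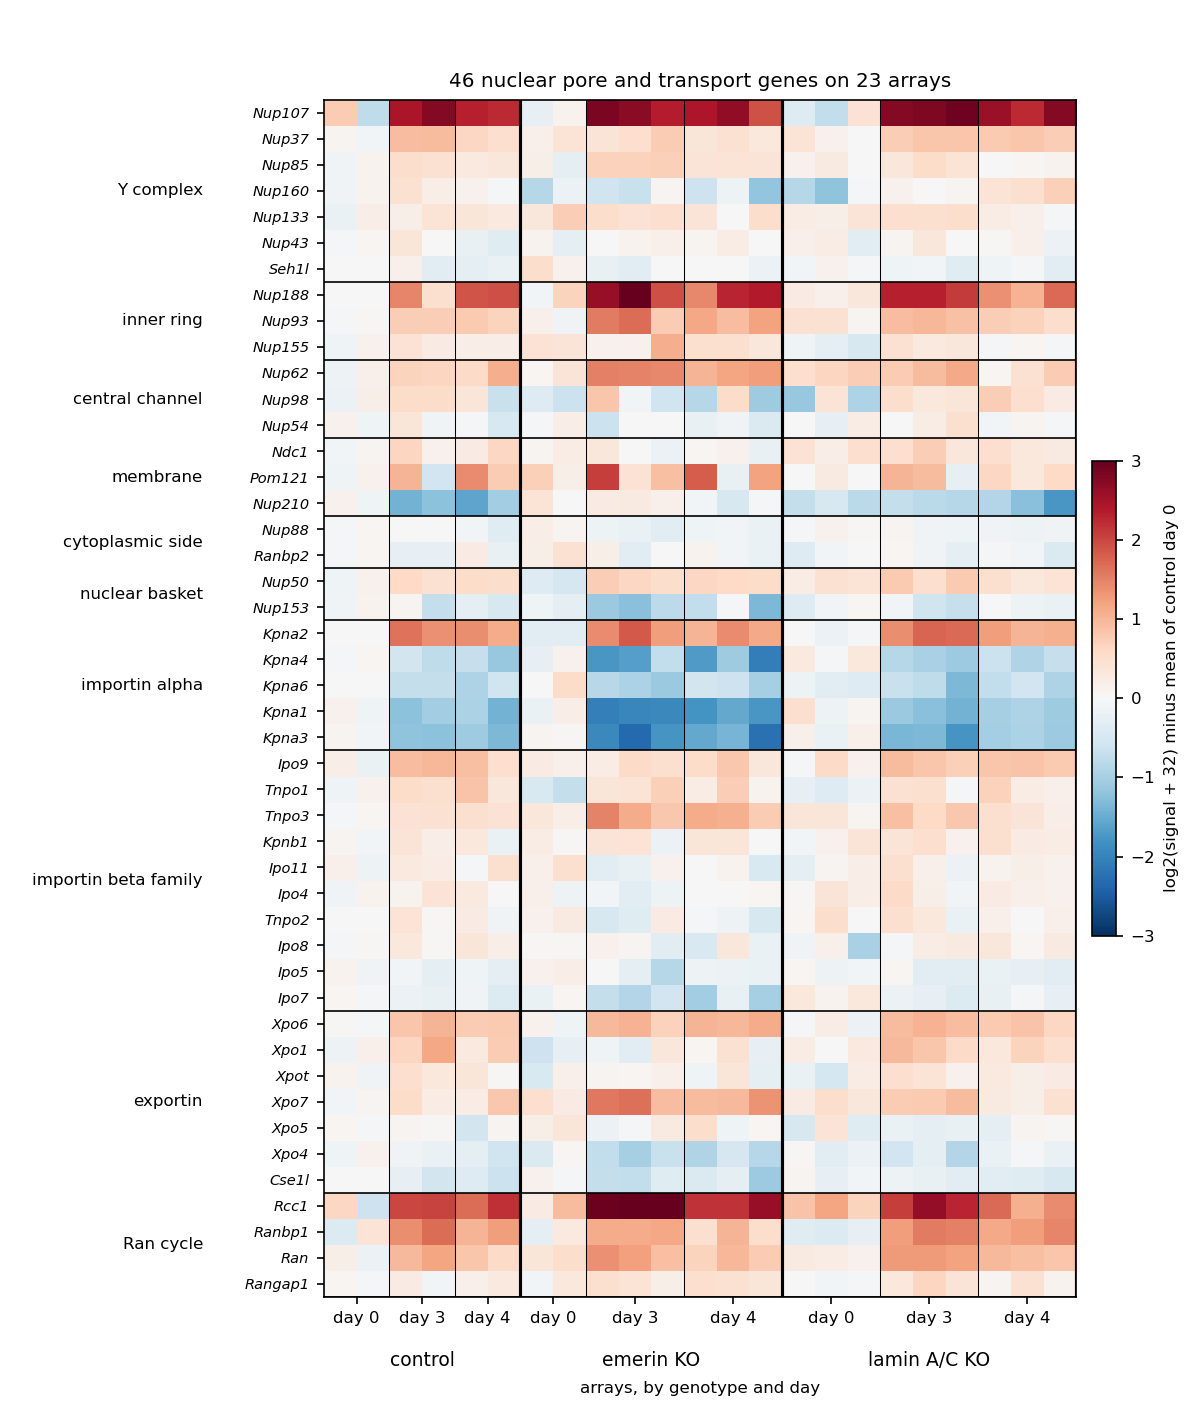
Heat map of the 46 members (lines, by role) on the 23 arrays (columns, by genotype and day), as log2(signal + 32) minus the mean of the 2 control day 0 arrays of the same gene, on a colour scale from -3 (blue) to 3 (red). Nup107, Rcc1, Nup188 and Kpna2 are red on day 3 and day 4, and Kpna1 and Kpna3 are blue there in all 3 genotypes. Rcc1 is also red on day 0 in the knockouts, on average 0.60 (emerin KO) and 0.91 (lamin A/C KO) above control. Nup188 is pale on control day 3 replicate 2 (signal 62.1).

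The injured muscle also differed in its cells. The summed signal of the 7 myofiber markers on day 3 was 48090 to 75047 in control, 35788 to 45437 in emerin KO and 41092 to 47020 in lamin A/C KO. That of the 7 macrophage markers rose from 4212 to 5359 on the control day 0 arrays to 27795 to 29746 on the control day 3 arrays, and all 7 were called higher. The 7 measured markers of cycling cells (such as Mki67 and Top2a) went from 1376 to 1454 in control on day 0 to 7244 to 7470 on day 3, and all 7 were called higher. Of the neutrophil markers 3 of 5 were higher in control on day 3, and of the myoblast markers 2 of 5 were higher and 1 was lower. Fibroblast markers had 1 of 5 higher, endothelial markers 0 of 4 called, lymphocyte markers 0 of 2 tested called and Schwann cell markers 1 of 2 tested lower. In whole muscle, fewer cells of a type and less RNA per cell cannot be told apart, and the part of these cell types in the members' changes was not tested.

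**Figure D2:**
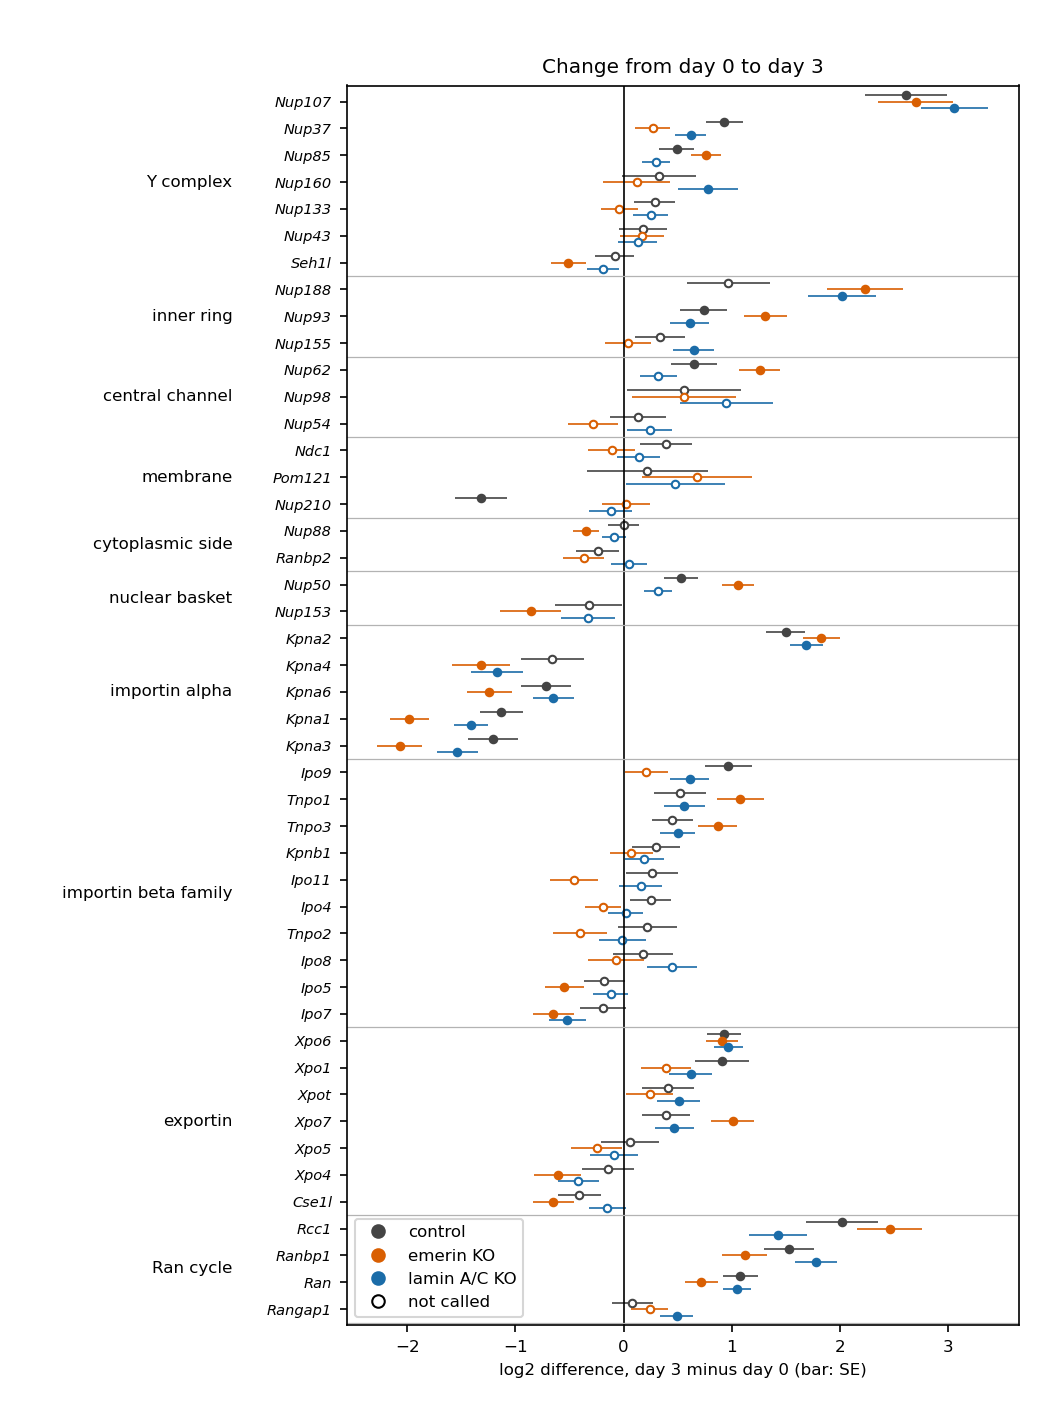
Log2 difference from day 0 to day 3 of each of the 46 members in control, emerin KO and lamin A/C KO, with bars of 1 standard error and open points where the adjusted p was 0.05 or more. Kpna2 lies between 1.5 and 1.83, and the 4 other importin alpha genes lie to the left of 0 in every genotype.

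Among the 7 genes of the Y complex, the scaffold of the outer rings, Nup107 rose most. Nup107 in control read a rescaled signal of 104 and 15.7 on day 0, 410 and 515 on day 3, and 372 and 351 on day 4. Nup107 in emerin KO read 35.5 and 54.9, then 536, 492 and 382, then 400, 475 and 273. Nup107 in lamin A/C KO read 29.5, 16.4 and 77.0, then 512, 531 and 580, then 451, 347 and 513. Every injured array lay above every day 0 array, and all day 0 group means were under 100, the level a gene had to reach on at least 2 arrays to be tested. The day 3 means were therefore at least 4.62-fold (control), 4.70-fold (emerin KO) and 5.41-fold (lamin A/C KO) above that level. The fitted log2 differences on day 3 were 2.61 ± 0.38 (SE, adjusted p 1.1e-05), 2.70 ± 0.35 (1.2e-06) and 3.06 ± 0.31 (5.0e-08).

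The other Y complex genes moved less. Nup37 rose in control by 0.93 ± 0.17 on day 3 (adjusted p 1.6e-04) and in lamin A/C KO by 0.62 ± 0.14 (9.4e-04), and its difference in emerin KO was 0.27 ± 0.16 (0.17). Nup85 rose on day 3 in control by 0.49 ± 0.16 (0.018) and in emerin KO by 0.76 ± 0.14 (1.5e-04), and its difference in lamin A/C KO was 0.30 ± 0.13 (0.068). Nup160 was called in lamin A/C KO alone (0.78 on day 3, 1.24 on day 4), and Seh1l was called lower in emerin KO on day 3 (-0.51). Of the 5 other Seh1l probe sets, 4 had the opposite sign there (0.36, 0.07, 0.18 and 1.18), and the mean of all its sets was not called (0.07, adjusted p 0.74). With the mean of its sets Nup85 was not called in control on day 3 (0.32, 0.21) and was called in lamin A/C KO (0.50, 0.011). None of these patterns was called different between genotypes by an interaction term. Nup133 and Nup43 were not called in any of the 6 comparisons.

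The inner ring holds the pore's structural core to the membrane. Nup93, which anchors the channel nucleoporins, in control read 511 and 530 on day 0, 892 and 892 on day 3, and 917 and 849 on day 4. Nup93 in emerin KO read 580 and 482, then 1588, 1745 and 898, then 1209, 1013 and 1249. Nup93 in lamin A/C KO read 721, 729 and 551, then 1023, 1067 and 991, then 892, 866 and 765. Within each genotype no injured array overlapped day 0, and 1 emerin KO day 3 array (898) lay close to control. Nup93 rose on day 3 by 0.74 ± 0.22 in control (adjusted p 0.011), 1.31 ± 0.20 in emerin KO (1.2e-05) and 0.61 ± 0.18 in lamin A/C KO (0.0086). The control call ended when control day 0 replicate 1 (0.72, adjusted p 0.061) or either day 3 array was left out (replicate 1: 0.74, 0.052, replicate 2: 0.74, 0.051) and with median scaling (0.63, 0.11). The lamin A/C KO call ended without lamin A/C KO day 0 replicate 3 (0.48, 0.055) and when the Gapdh ratio was a covariate (0.47, 0.054).

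Nup188, a partner of Nup93, was dim on day 0. Nup188 in control read 36.5 and 34.4, then 154 and 62.1 on day 3, then 218 and 226 on day 4. Nup188 in emerin KO read 32.2 and 76.0, then 383, 527 and 224, then 150, 299 and 319. Nup188 in lamin A/C KO read 47.7, 43.3 and 53.1, then 310, 310 and 259, then 143, 108 and 187. The injured arrays lay above the day 0 arrays of their genotype. With day 0 means under 100, the day 3 mean was at least 3.78-fold that level in emerin KO and 2.93-fold in lamin A/C KO, with fitted differences of 2.23 ± 0.35 (adjusted p 1.3e-05) and 2.02 ± 0.31 (1.3e-05). In control it was called on day 4 (1.91 ± 0.38, adjusted p 4.0e-04) and was 0.97 ± 0.38 on day 3 (0.052). Nup155, the other measured gene of the inner ring, was called by its brightest probe set in lamin A/C KO on day 3 alone (0.65). Its second set differed on day 3 by 0.60 in control, 0.72 in emerin KO and 0.31 in lamin A/C KO. With the mean of the 2 sets Nup155 was also called in control on day 3 (0.47, adjusted p 0.039) and in emerin KO on day 4 (0.40, 0.042).

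Of the central channel genes, whose repeats form the permeability barrier, Nup62 was the only member called by its brightest probe set. Nup62 in control read 446 and 561, then 813 and 796 on day 3, then 761 and 1095 on day 4. Nup62 in emerin KO read 518 and 664, then 1482, 1466 and 1407, then 1041, 1168 and 1242. Nup62 in lamin A/C KO read 726, 805 and 854, then 868, 996 and 1146, then 525, 702 and 876. The emerin KO day 3 arrays were the highest of all 23, and in lamin A/C KO the day 4 arrays overlapped day 0. It rose on day 3 in control by 0.65 ± 0.21 (adjusted p 0.018) and in emerin KO by 1.26 ± 0.19 (9.4e-06), and its difference in lamin A/C KO was 0.32 ± 0.17 (0.14). With the mean of its 4 probe sets the lamin A/C KO difference on day 3 was called (0.36 ± 0.12, adjusted p 0.017). The control call on day 3 ended without control day 0 replicate 1 (0.50, 0.18), control day 3 replicate 1 (0.64, 0.081) or replicate 2 (0.67, 0.065), with the mean of all its probe sets (0.37, 0.052), with quantile normalization (0.55, 0.051) and with median scaling (0.54, 0.090). Nup54 and Nup98 were called in none of the 6 comparisons by their brightest probe sets. For Nup54 that set differed on day 3 by 0.13 in control, -0.28 in emerin KO and 0.24 in lamin A/C KO. Another Nup54 set, nearly as bright (mean signal 270 against 281), was higher in all 6, on day 3 by 0.70, 1.55 and 1.34. The remaining Nup54 set read under 100 on every array.

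Nup210, a membrane-spanning nucleoporin known for its part in the differentiation of muscle cells, was the 1 member whose change from day 0 was called different between genotypes. Nup210 in control read 713 and 588 on day 0, 222 and 258 on day 3, and 195 and 298 on day 4. Nup210 in emerin KO read 868 and 658, then 780, 790 and 729, then 605, 455 and 630. Nup210 in lamin A/C KO read 383, 453 and 353, then 381, 358 and 341, then 340, 251 and 169. Control muscle went from high to low with no overlap, emerin KO day 3 overlapped its own day 0, and lamin A/C KO was below both other genotypes already on day 0. Nup210 fell in control by 1.32 ± 0.24 on the log2 scale on day 3 (adjusted p 1.7e-04) and by 1.31 ± 0.24 on day 4 (2.0e-04). The differences in emerin KO were 0.02 ± 0.22 on day 3 (0.96) and -0.42 ± 0.22 on day 4 (0.14). In lamin A/C KO they were -0.12 ± 0.20 on day 3 (0.65) and -0.62 ± 0.20 on day 4 (0.016), the latter call ending without lamin A/C KO day 0 replicate 2 (-0.53, 0.072) or day 4 replicate 3 (-0.39, 0.14). A single probe set read this gene. The other membrane genes, Ndc1 and Pom121, were not called by their brightest probe sets. With the mean of its 2 sets Pom121 was called higher in control on day 4 (0.90, adjusted p 0.041) and in emerin KO on day 3 (0.85, 0.026). The 2 genes of the cytoplasmic side were called once between them by their brightest probe sets, Nup88 in emerin KO on day 3 (-0.35). The brightest Ranbp2 set differed on day 3 by -0.24 in control, -0.37 in emerin KO and 0.05 in lamin A/C KO. Its other set was higher on both days in every genotype, on day 3 by 0.84, 0.66 and 0.45.

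In the nuclear basket, Nup50, which helps release importin alpha from its cargo, was called higher in control and emerin KO by its brightest probe set. Nup50 in control read 286 and 352, then 499 and 445 on day 3, then 477 and 474 on day 4. Nup50 in emerin KO read 237 and 216, then 550, 508 and 468, then 507, 493 and 482. Nup50 in lamin A/C KO read 379, 450 and 430, then 567, 465 and 569, then 457, 406 and 435. The injured arrays of the 3 genotypes overlapped, and emerin KO had the lowest and lamin A/C KO the highest day 0 arrays. The day 3 rise was 0.53 ± 0.16 in control (adjusted p 0.015) and 1.06 ± 0.15 in emerin KO (3.8e-06), and the difference in lamin A/C KO was 0.32 ± 0.13 (0.058). The control call ended without control day 0 replicate 1 (0.39, 0.17) or control day 3 replicate 1 (0.45, 0.12), with quantile normalization (0.39, 0.077), with median scaling (0.42, 0.12) and when the other 7 groups were left out of the model (0.53, 0.076). Its 2 other probe sets were higher in lamin A/C KO on day 3 (0.88 and 2.35), where the mean of the 3 sets was called (1.18 ± 0.19, adjusted p 2.8e-05). In emerin KO on day 4 they went the other way (-0.39 and -0.13), and with the mean that call ended (0.17, 0.55). Nup153 was called in emerin KO on day 3 alone (-0.86).

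The importin alpha adaptors split in 2 directions: Kpna2 rose and Kpna1, Kpna3, Kpna4 and Kpna6 fell. Kpna2, the adaptor known for its high level in proliferating cells, in control read 564 and 550, then 1793 and 1497 on day 3, then 1506 and 1247 on day 4. Kpna2 in emerin KO read 442 and 431, then 1539, 2065 and 1374, then 1163, 1533 and 1265. Kpna2 in lamin A/C KO read 561, 493 and 540, then 1529, 1954 and 1895, then 1370, 1161 and 1207. No injured array overlapped a day 0 array of any genotype. The day 3 rise was 1.5 ± 0.18 in control (adjusted p 1.2e-06), 1.83 ± 0.17 in emerin KO (8.5e-09) and 1.69 ± 0.15 in lamin A/C KO (6.7e-09). The day 4 rise was 1.25 ± 0.18, 1.52 ± 0.17 and 1.18 ± 0.15, in the same order of genotypes.

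Kpna1 and Kpna3, adaptors of the other importin alpha subfamilies, moved the opposite way. Kpna1 in control read 2576 and 2157, then 991 and 1130 on day 3, then 1200 and 868 on day 4. Kpna1 in emerin KO read 2045 and 2723, then 545, 586 and 594, then 661, 795 and 676. Kpna1 in lamin A/C KO read 3360, 2127 and 2513, then 1069, 972 and 863, then 1170, 1217 and 1108. All day 0 arrays were above all injured arrays, and the 6 injured emerin KO arrays were the lowest of the 23. It fell by 1.13 ± 0.20 in control (adjusted p 9.1e-05), by 1.98 ± 0.18 in emerin KO (7.0e-09) and by 1.41 ± 0.16 in lamin A/C KO (2.5e-07) on day 3. Its 4 other probe sets differed by -1.79, -1.0, -1.52 and -1.25 in control on day 3.

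Kpna3 in control read 2212 and 1959, then 891 and 876 on day 3, then 979 and 802 on day 4. Kpna3 in emerin KO read 2191 and 2117, then 519, 387 and 583, then 703, 773 and 414. Kpna3 in lamin A/C KO read 2330, 1813 and 2334, then 783, 796 and 586, then 1008, 1055 and 960. The day 0 arrays of the 3 genotypes overlapped, and every injured array lay below them. On day 3 it fell by 1.21 ± 0.23 in control (adjusted p 2.5e-04), by 2.07 ± 0.21 in emerin KO (3.9e-08) and by 1.54 ± 0.19 in lamin A/C KO (6.6e-07). With the Gapdh ratio as a covariate the emerin KO difference was -1.03 ± 0.25 (adjusted p 0.0036).

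Kpna6 fell in 5 of the 6 comparisons, with day 3 differences of -0.72 ± 0.23 in control (adjusted p 0.016), -1.24 ± 0.21 in emerin KO (3.2e-05) and -0.65 ± 0.19 in lamin A/C KO (0.0070). Kpna4 also fell in 5, all but control on day 3, where it was -0.66 ± 0.29 (0.094). In emerin KO Kpna4 was -1.32 ± 0.27 on day 3 (3.2e-04), and with the Gapdh ratio as a covariate it was -0.16 ± 0.37 (0.80). The myofiber markers moved down on the same arrays (summed signals above), and the part of fiber loss in these falls was not tested.

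**Figure D3:**
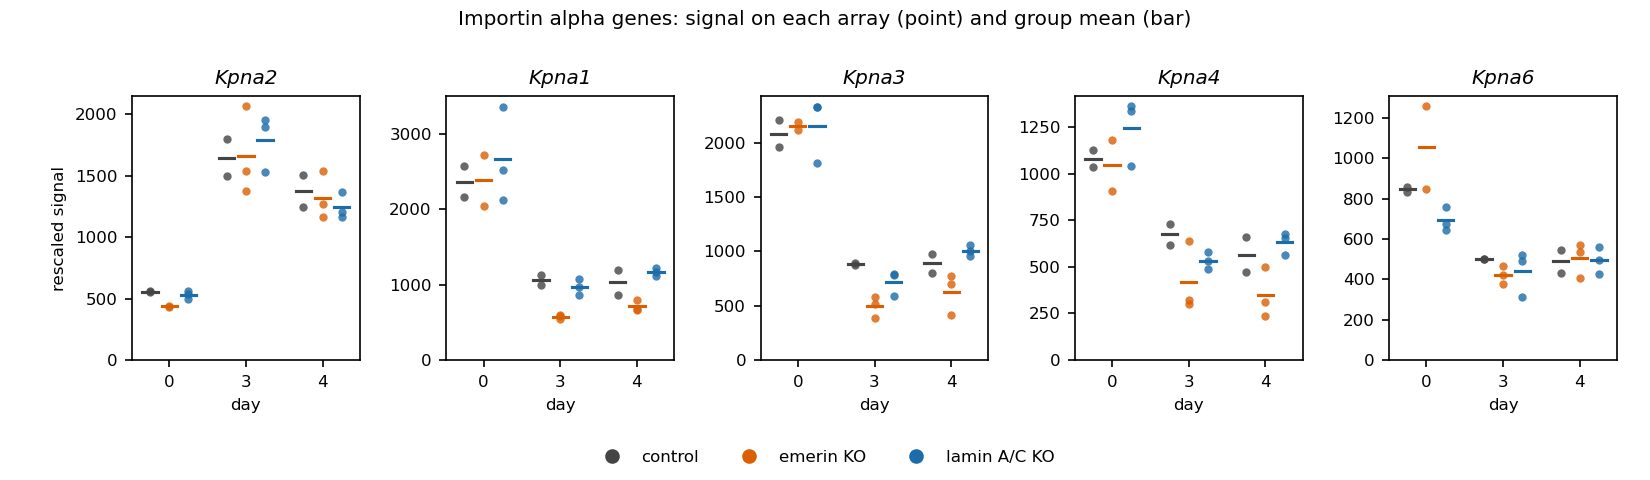
Rescaled signal (linear, from 0) of the 5 importin alpha genes on day 0, day 3 and day 4, 1 point per array and a bar at each group mean, coloured by genotype. Kpna2 goes from 431 to 564 on day 0 to 1374 to 2065 on day 3, and the other 4 go down in each genotype.

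The importin beta family carries cargo directly or with importin alpha, and 10 of its genes were measured. Ipo9, an import receptor of histones and actin, in control read 298 and 222, then 520 and 549 on day 3, then 508 and 380 on day 4. Ipo9 in emerin KO read 314 and 291, then 305, 397 and 370, then 395, 476 and 337. Ipo9 in lamin A/C KO read 247, 402 and 284, then 530, 484 and 441, then 481, 495 and 466. Control and lamin A/C KO moved up with no overlap, and emerin KO day 3 overlapped its day 0. The day 3 rise was 0.97 ± 0.22 in control (adjusted p 0.0012) and 0.61 ± 0.18 in lamin A/C KO (0.0072), and the difference in emerin KO was 0.21 ± 0.20 (0.40). The lamin A/C KO call ended without lamin A/C KO day 0 replicate 1 (0.48, 0.054).

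Tnpo3, the import receptor of splicing factors rich in serine and arginine, in control read 455 and 499, then 658 and 670 on day 3, then 682 and 658 on day 4. Tnpo3 in emerin KO read 610 and 555, then 1405, 1074 and 858, then 1074, 1035 and 824. Tnpo3 in lamin A/C KO read 618, 626 and 504, then 918, 736 and 854, then 678, 630 and 549. The emerin KO arrays of day 3 and day 4 were above all control arrays. It rose on day 3 by 0.87 ± 0.18 in emerin KO (adjusted p 3.1e-04) and by 0.50 ± 0.16 in lamin A/C KO (0.014), and the control difference was 0.45 ± 0.19 (0.080). The lamin A/C KO call ended without lamin A/C KO day 0 replicate 3 (0.40, 0.074) or day 3 replicate 1 (0.43, 0.064), and with the mean of its 3 probe sets (0.26, 0.19).

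Tnpo1, an import receptor of RNA-binding proteins, rose on day 3 in emerin KO (1.08 ± 0.22, adjusted p 2.7e-04) and lamin A/C KO (0.56 ± 0.19, 0.023), and its second probe set went the other way in each genotype (-1.35 in control, -1.07 and -1.0 in the knockouts), and the mean of its sets was not called (0.01, adjusted p 0.98 in emerin KO, and -0.22, 0.28 in lamin A/C KO). Ipo7 fell in emerin KO on both days (-0.65 and -0.68) and in lamin A/C KO on day 3 (-0.52), and Ipo5 fell in emerin KO on day 3 (-0.55). With the Gapdh ratio as a covariate Ipo7 was at 0.17 ± 0.24 in emerin KO on day 3 (adjusted p 0.68). Ipo4, Ipo8, Ipo11 and Tnpo2 were not called in any of the 6 comparisons.

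Kpnb1, the partner of importin alpha, depended on the probe set. Its brightest set, used in the counts, was not called and differed from day 0 by 0.06 to 0.30. Its 3 other sets were higher in all 6 comparisons, on day 3 by 1.83, 0.99 and 0.74 in control, 0.92, 0.83 and 1.14 in emerin KO and 0.73, 0.25 and 0.57 in lamin A/C KO. With the mean of its 4 sets Kpnb1 was called higher in all 6, by 0.97 ± 0.15 in control on day 3 (adjusted p 3.3e-05), 0.74 ± 0.14 in emerin KO (1.5e-04) and 0.44 ± 0.12 in lamin A/C KO (0.0065).

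Among the 7 exportins, Xpo6, the exporter of actin with profilin, rose in all 3 genotypes. Xpo6 in control read 461 and 437, then 824 and 944 on day 3, then 783 and 795 on day 4. Xpo6 in emerin KO read 490 and 405, then 918, 959 and 742, then 950, 926 and 1011. Xpo6 in lamin A/C KO read 434, 526 and 397, then 901, 962 and 882, then 795, 836 and 705. Every injured array lay above every day 0 array. The day 3 rise was 0.93 ± 0.16 in control (adjusted p 1.0e-04), 0.91 ± 0.15 in emerin KO (2.5e-05) and 0.97 ± 0.13 in lamin A/C KO (3.1e-06).

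Xpo1, the general exporter of proteins with a leucine-rich signal, in control read 698 and 883, then 1251 and 1796 on day 3, then 974 and 1355 on day 4. Xpo1 in emerin KO read 501 and 658, then 710, 628 and 996, then 819, 1090 and 659. Xpo1 in lamin A/C KO read 929, 777 and 972, then 1572, 1434 and 1184, then 986, 1274 and 1131. Emerin KO stayed below the control arrays on day 0 and on day 3. It rose on day 3 in control by 0.91 ± 0.25 (adjusted p 0.0065) and in lamin A/C KO by 0.62 ± 0.20 (0.016), and the emerin KO difference was 0.39 ± 0.23 (0.17). The control call ended without control day 0 replicate 1 (0.74, 0.084) or control day 3 replicate 2 (0.65, 0.12), and with the mean of its probe sets (0.33, 0.36). The lamin A/C KO call ended without lamin A/C KO day 0 replicate 2 (0.53, 0.073) or day 3 replicate 1 (0.54, 0.071), and with that mean (0.12, 0.68).

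Xpo7, a broad exporter also known from maturing red cells, in control read 971 and 1074, then 1519 and 1203 on day 3, then 1198 and 1805 on day 4. Xpo7 in emerin KO read 1463 and 1222, then 3122, 3295 and 1969, then 2010, 2021 and 2664. Xpo7 in lamin A/C KO read 1210, 1484 and 1308, then 1755, 1793 and 2013, then 1241, 1156 and 1407. The emerin KO arrays of both injured days were above every other array but the highest lamin A/C KO day 3 array. It rose in emerin KO by 1.01 ± 0.20 on day 3 (adjusted p 2.8e-04), and this call ended with the mean of its 2 probe sets (0.27, 0.18) and with the Gapdh ratio as a covariate (0.36, 0.47). The second probe set differed by -0.47 there. The lamin A/C KO rise on day 3 (0.47 ± 0.18, adjusted p 0.043) ended with any array of its 2 groups left out except day 0 replicate 2, with values of 0.40 to 0.50.

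Xpo4, an exporter of the translation factor eIF5A, in control read 288 and 356, then 298 and 277 on day 3, then 260 and 200 on day 4. Xpo4 in emerin KO read 228 and 337, then 179, 146 and 189, then 158, 216 and 164. Xpo4 in lamin A/C KO read 330, 253 and 278, then 205, 261 and 161, then 273, 306 and 276. The injured emerin KO arrays were below their day 0 arrays, and in the other genotypes day 3 overlapped day 0. It fell in emerin KO by 0.61 ± 0.22 on day 3 (adjusted p 0.024), a call that ended without emerin KO day 0 replicate 2 (-0.36, 0.31) or day 3 replicate 2 (-0.52, 0.087), and with the Gapdh ratio as a covariate (-0.21, 0.74). Cse1l, which returns importin alpha to the cytoplasm, also fell in emerin KO (-0.65 on day 3, -0.64 on day 4), Xpot, the exporter of transfer RNA, rose in lamin A/C KO on day 3 (0.51), and Xpo5 was not called.

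All 4 genes of the Ran cycle rose in at least 1 comparison, and none fell. Rcc1, the exchange factor of Ran, in control read 140 and 40.8, then 419 and 424 on day 3, then 328 and 481 on day 4. Rcc1 in emerin KO read 101 and 183, then 831, 951 and 913, then 470, 471 and 658. Rcc1 in lamin A/C KO read 172, 222 and 146, then 443, 668 and 514, then 332, 201 and 266. Every day 3 array was above every day 0 array, the emerin KO day 3 arrays were the highest, and in lamin A/C KO day 4 overlapped day 0. The rise was 2.02 ± 0.33 in control on day 3 (adjusted p 3.7e-05), a day 3 mean at least 4.22-fold above the level of 100 that the day 0 mean did not reach. It was 2.46 ± 0.30 in emerin KO (4.6e-07) and 1.43 ± 0.27 in lamin A/C KO (1.3e-04), where day 4 was at 0.49 ± 0.27 (0.16).

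Ran itself averaged 2953, 4010 and 3401 on day 0 in control, emerin KO and lamin A/C KO, and 6230, 6683 and 7052 on day 3. Its day 3 rise was 1.08 ± 0.16 (adjusted p 1.8e-05), 0.72 ± 0.15 (3.6e-04) and 1.05 ± 0.13 (1.1e-06). It is read by 6 probe sets, and in control on day 3 the 5 others differed by 0.34, -0.37, 0.83, 0.09 and -0.08. Ranbp1, which helps RanGAP1 turn Ran over in the cytoplasm, averaged 1098, 1082 and 825 on day 0 and 3107, 2340 and 2917 on day 3. That is a rise of 1.53 ± 0.23 (1.7e-05), 1.12 ± 0.21 (1.4e-04) and 1.78 ± 0.19 (8.7e-08). Rangap1 was called in lamin A/C KO on day 3 alone (0.49 ± 0.15, adjusted p 0.011), and with the mean of its probe sets also in emerin KO on day 3 (0.86 ± 0.14, 4.4e-05) and day 4 (0.65 ± 0.14, 9.3e-04).

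The RNA quality measure moved with the emerin KO changes. The emerin KO ratios were 0.914 to 1.34 on day 0 and 3.62 to 6.09 on day 3, with no overlap. A model with 1 mean per group takes the slope of the covariate from the spread within groups and extends it across that gap. The covariate therefore cannot separate RNA quality from the day, and calls lost with it are not thereby shown to come from RNA quality. With the Gapdh ratio as a covariate, 16 members were called in emerin KO on day 3 against 25 without it, 13 higher and 3 lower (Kpna1, Kpna3 and Kpna6), and 25.2% of all genes against 46.1%. Besides the members named above, Cse1l (0.24 ± 0.23), Nup153 (0.49 ± 0.35), Nup88 (-0.23 ± 0.21), Seh1l (-0.12 ± 0.26) and Ipo5 (-0.63 ± 0.31) were no longer called lower. Tnpo1 was at 1.93 ± 0.31 with the covariate, Nup93 was no longer called (0.83 ± 0.33, adjusted p 0.074), and Xpo1 was called higher (1.08 ± 0.36, 0.032). In emerin KO on day 4, 21 members were called (44.2% of all genes), 18 with the covariate (32.8%) and 17 when the arrays with a ratio above 2 were left out (35.3%).

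Between day 3 and day 4 none of the 46 members was called by limma in any genotype when read from its brightest probe set. In control this was 0 of 46 beside 0.0448% of all genes, in emerin KO 0 beside 1.17%, and in lamin A/C KO 0 beside 2.04%. At an unadjusted p under 0.05 there were 4, 5 and 13 members, beside 4.76%, 11.1% and 14.9% of all genes, with median differences of -0.11, -0.04 and -0.10. The smallest adjusted p in lamin A/C KO was 0.066. With the mean of all its probe sets Nup50 was called lower on day 4 than on day 3 in emerin KO (-0.88 ± 0.19, adjusted p 0.018 in limma).

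On day 3, emerin KO differed from control in 11 members: Nup210, Xpo7, Nup188, Nup62, Tnpo3, Rcc1 and Nup93 were higher and Kpna1, Xpo1, Kpna3 and Xpo4 were lower. These are 7 and 4 of 46, beside 7.38% of all tested genes higher and 8.92% lower. In 24 of the 46 members, these 11 among them, the 2 control and 3 emerin KO arrays did not overlap. On day 0, where no member was called, the arrays of these genotypes did not overlap in 22 of the 46. A lack of overlap between so few arrays therefore says little about a member, and its share over all genes was not counted. Nup210 differed by 1.56 ± 0.22 (adjusted p 9.6e-05), with means of 766 and 240. Nup188 differed by 1.56 ± 0.35 (0.0037), Rcc1 by 1.03 ± 0.30 (0.020) and Xpo7 by 1.0 ± 0.20 (0.0022). Smaller differences were those of Nup62 (0.83 ± 0.19, 0.0048), Tnpo3 (0.69 ± 0.18, 0.0099) and Nup93 (0.59 ± 0.20, 0.0496). Xpo1 was lower by 0.95 on the log2 scale (-0.95 ± 0.23, 0.0065), and Kpna1 (-0.85 ± 0.18, 0.0028), Kpna3 (-0.81 ± 0.21, 0.011) and Xpo4 (-0.66 ± 0.22, 0.041) followed.

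These differences lay on the arrays of high Gapdh ratio, since all 3 emerin KO day 3 arrays were at 3.62 or more and both control day 3 arrays at 0.957 and 0.976. With that ratio as a covariate 0 of the 11 were called, and the smallest adjusted p of any member was 0.27. Over all genes the calls went from 16.3% to 0.0806%. The median standard error of the members went from 0.20 to 0.36. No control array had a ratio in the range of these emerin KO arrays, so this model cannot separate RNA quality from genotype. The sign was the same for 10 of the 11: Nup210 was at 1.13 ± 0.41 (0.34), Tnpo3 at 0.86 ± 0.33 (0.40) and Kpna1 at -0.53 ± 0.33 (0.73), while Kpna3 turned to 0.32 ± 0.26 (0.83). Of the 11, Nup210 alone kept its call when control day 3 replicate 2 was left out, a fit that rests on 1 control array of day 3. With each of the 5 arrays left out in turn, Nup210 lay at 1.46 to 1.65, Nup188 at 1.06 to 2.05 and Xpo1 at -1.20 to -0.69. The count of 11 became 7 in the absence of emerin KO day 3 replicate 2, and the share of all genes in that run is not given here. The mean of all probe sets left Xpo1 at -0.30 (0.47), Xpo7 at 0.42 (0.075) and Tnpo3 at 0.36 (0.19), and these and Nup93 (0.59, 0.05) were no longer called. The count was again 11 of 46 with that mean, 7 of them shared, beside 14.4% of all genes. Nup85, Rangap1 and Pom121 were now called higher and Kpnb1 lower. Nup93 also lost its call with median scaling (0.65, 0.11), a pseudocount of 1 (0.60, 0.053) and no filter (0.59, 0.054). Xpo4 lost it with median scaling (-0.60, 0.065) and no filter (-0.66, 0.051).

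Cell type markers also differed on these arrays. The summed myofiber signal was lower in emerin KO on day 3 (35788 to 45437, against 48090 to 75047 in control), with 2 of 7 markers called lower. The cycling cell sum was 8438 to 10547 against 7244 to 7470, with 2 of 7 called higher, and the myoblast sum was 18224 to 20905 against 12505 to 12897, with 2 of 5 called higher. The fibroblast sum was 29034 to 31808 against 41012 to 42121, with 2 of 5 called lower, and the neutrophil sum was 1994 to 2655 against 3577 to 3589, with 0 of 5 called. The macrophage sums overlapped (28655 to 29584 and 27795 to 29746), with 2 of 7 called higher and 1 lower. No endothelial, lymphocyte or Schwann cell marker was called. The part of these cells, of RNA quality and of the line in the 11 differences was not tested.

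**Figure D4:**
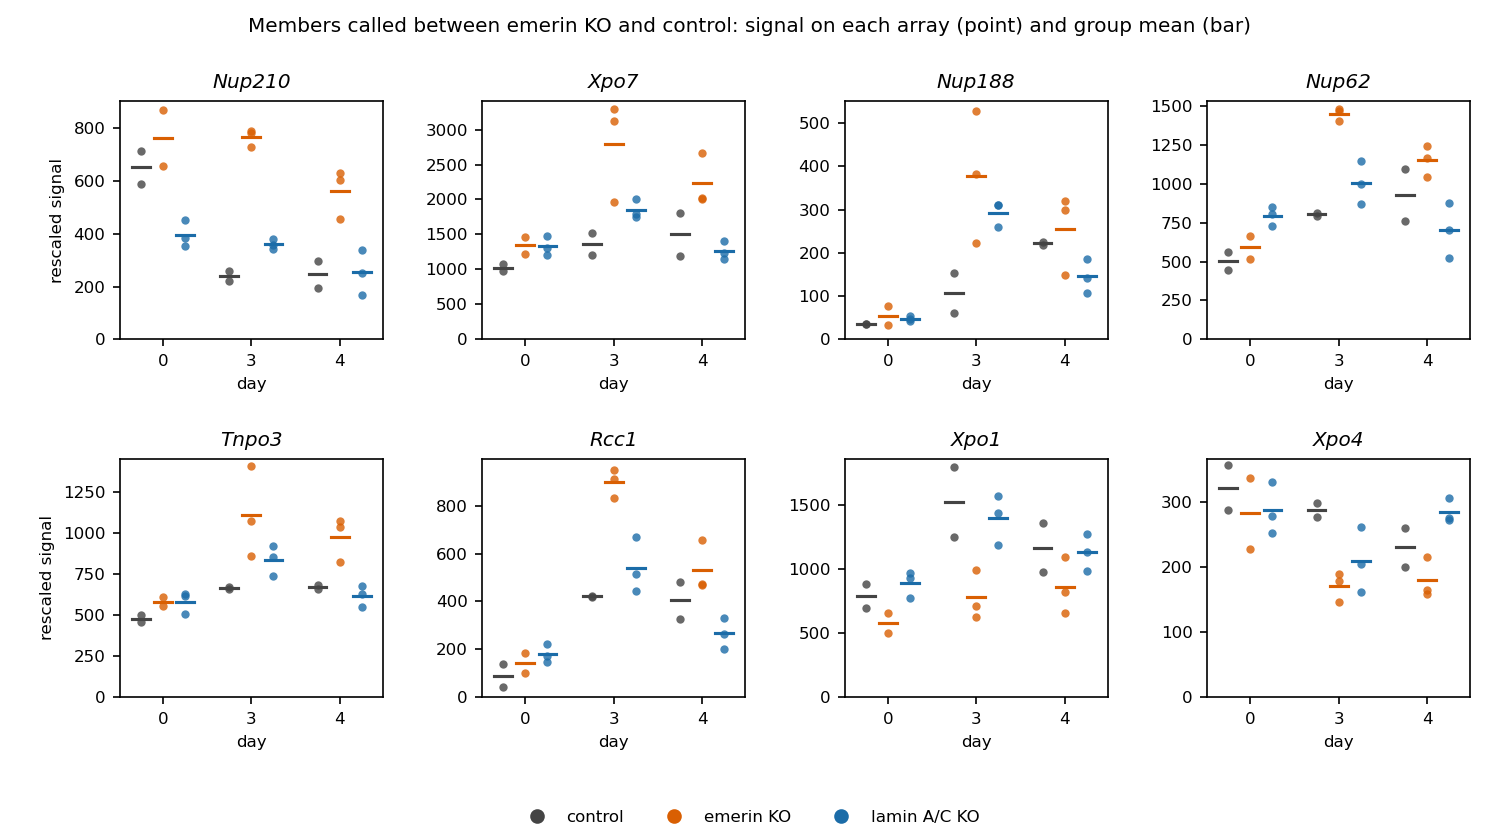
Rescaled signal (linear, from 0) of 8 of the 11 members called between emerin KO and control on day 3, 1 point per array and a bar at each group mean, by day and genotype. On day 3 the emerin KO points lie apart from the 2 control points in every panel, above them for the first 6 genes and below them for Xpo1 and Xpo4.

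**Figure D5:**
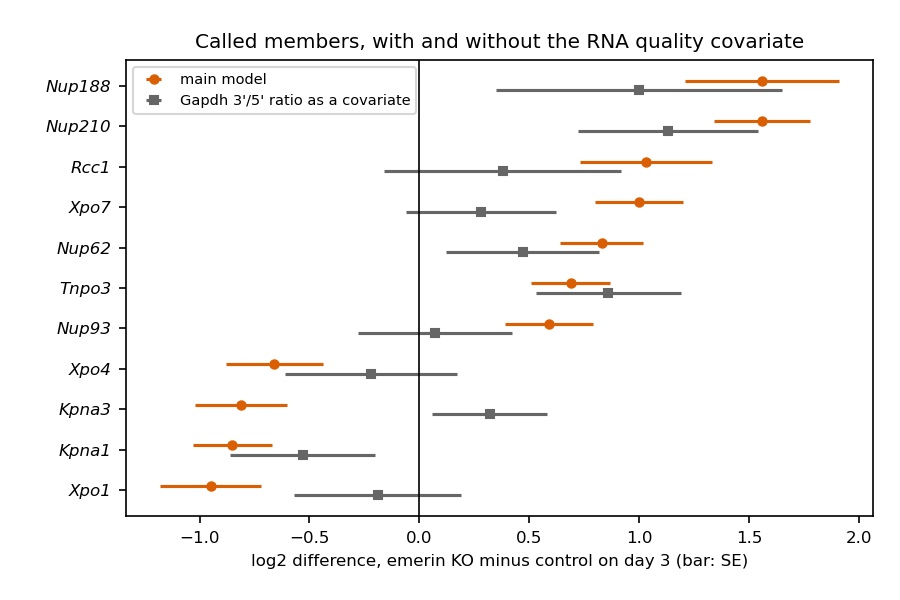
Log2 difference between emerin KO and control on day 3 for the 11 called members, with bars of 1 standard error, from the model without (circles) and with (squares) the Gapdh 3'/5' ratio as a covariate. The squares have wider bars and lie nearer 0 for every gene but Tnpo3, and Kpna3 crosses 0.

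On day 4 only Nup210 differed between emerin KO and control by the brightest probe sets (1.11 ± 0.22, adjusted p 0.0054), which is 1 of 46 members beside 5.87% of all genes in either direction. Its emerin KO arrays read 455 to 630 and its control arrays 195 and 298. The call ended without control day 4 replicate 1 (0.84, 0.15), without the arrays of high Gapdh ratio (0.83, 0.40), when that ratio was a covariate (0.86, 0.36) and when the model held just these 2 groups (1.11, 0.055). With the mean of all its probe sets Nup50 was called too on day 4, lower in emerin KO (-0.76 ± 0.21, adjusted p 0.040 in limma). The count was then 2 of 46 beside 5.45% of all genes. On day 0 none of the 46 was called in limma, beside 3.26% of all genes, with 4 members at an unadjusted p under 0.05 (15.9% of all genes) and a smallest adjusted p of 0.15.

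No member was called between lamin A/C KO and control by limma. The counts were 0 of 46 on day 0 beside 0.896% of all genes, 0 on day 3 beside 0.0269% and 0 on day 4 beside 0.0448%. At an unadjusted p under 0.05 there were 5, 4 and 1 members, beside 10.3%, 7.25% and 4.84% of all genes. The nearest values included Nup62 (0.63 ± 0.19, adjusted p 0.15) and Nup210 (-0.67 ± 0.22, 0.21) on day 0 and Nup188 (1.29 ± 0.35, 0.36) on day 3. The lack of a call does not show that the groups are alike.

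The interaction terms asked whether the change from day 0 differed between a knockout and control. Nup210 was the 1 member of 46 called, in emerin KO on day 3 (1.34 ± 0.33, adjusted p 0.033), beside 2.64% of all genes. That call ended without either control day 0 array, either control day 3 array, emerin KO day 0 replicate 2 or emerin KO day 3 replicate 1 or 2 (1.15 to 1.47, adjusted p 0.060 to 0.14), when the Gapdh ratio was a covariate (0.98, 0.47) and when the model held just the 4 groups concerned (1.34, 0.054). In lamin A/C KO the Nup210 term on day 3 was 1.20 ± 0.32 (0.23). For emerin KO on day 4, 0 members were called beside 0.573% of all genes, and for lamin A/C KO 0 on day 3 beside 0.17% and 0 on day 4 beside 0.206%. At an unadjusted p under 0.05 these 3 terms had 3, 2 and 5 members in limma, beside 12.2%, 6.41% and 7.76% of all genes. The terms for Kpna1 (-0.85 ± 0.27, adjusted p 0.093), Nup37 (-0.66 ± 0.23, 0.13) and Kpna3 (-0.86 ± 0.31, 0.15) in emerin KO on day 3 were not called, so their larger falls or smaller rise in emerin KO were not shown to differ from control. All 4 interactions use the control day 0 arrays.

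Other genes of nuclear transport outside the symbol rule were read from a list of 28, of which 21 were measured and tested. In control on day 3, 6 were higher and 2 lower, in emerin KO 7 and 2, and in lamin A/C KO 6 and 1, beside the shares of all genes given above for these comparisons (20.1% and 14.2%, 23.9% and 22.2%, 23.4% and 19.6%). With the Gapdh ratio as a covariate the emerin KO counts on day 3 were 4 and 0, beside 14.6% and 10.6% of all genes. Aaas, a nucleoporin of the cytoplasmic side mutated in triple A syndrome, rose by 2.53 ± 0.29 in control (adjusted p 4.9e-07), 2.25 in emerin KO and 2.22 in lamin A/C KO. The messenger RNA export genes Nxf1, the main export receptor (1.84 ± 0.34, 1.5e-04), and Alyref, its adaptor (0.81 ± 0.15, 1.9e-04), rose in control and in both knockouts. Rangrf, a Ran-binding factor, fell by 1.18 ± 0.20 in control (7.2e-05), by 1.18 in emerin KO and by 0.79 in lamin A/C KO. Between emerin KO and control on day 3, 4 of the 21 were higher and 4 lower, beside 7.38% and 8.92% of all genes, Ddx39b, an RNA helicase of messenger RNA export, being higher by 0.94 ± 0.14 (1.3e-04) and Sec13, a Y complex and coat protein, lower by 1.25 on the log2 scale (-1.25 ± 0.22, 6.3e-04). Once the model held the Gapdh ratio, 0 of the 21 were called by limma between emerin KO and control on day 3, beside 0.0806% of all genes. Ddx39b was then at 0.87 ± 0.26 (adjusted p 0.23) and Sec13 at -0.88 ± 0.41 (0.53). Sec13 was lower on day 0 too (-0.97 ± 0.24, adjusted p 0.030).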

How the data were processed

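Each of the 23 arrays was deposited as a signal intensity per probe set, made by the authors with MAS5 per the submitters' processing notes. The version and annotation are not given in the sources used here. The deposited 2% trimmed mean was nearly equal on all arrays. All values were then multiplied per array so that this mean became 500, the scale of the signals printed. The arrays hold 22690 probe sets. Not used were 64 controls, 691 sets with several symbols and 1555 without a listed gene. Each of 12393 genes was read from its brightest set. Genes reading 100 or more on at least 2 arrays (11164) were tested on log2(signal + 32), a scale that understates changes of dim genes. Limma 3.58.1 in R 4.3.3 (lmFit, eBayes with trend) was fitted over all 9 groups, with 14 residual degrees of freedom and no block. P-values were Benjamini-Hochberg adjusted within each of 19 comparisons, and a gene was called at an adjusted p under 0.05. Tables and figures used Python 3.11.15, pandas 2.3.3 and matplotlib 3.10.9. The fit was tested on simulated data.

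Members and lists (roles, other transport genes, and markers of myofibers, macrophages, neutrophils, myoblasts, fibroblasts, endothelial cells, lymphocytes, Schwann cells and cycling cells) were chosen with earlier results of these data known. Members given with every array were the largest called rise and fall of each role in control on day 3, up to 10 with a genotype or interaction call by smallest adjusted p, and up to 6 called between day 3 and day 4. Ran and Ranbp1 were given by group means.

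Alternatives were quantile normalization, median scaling, pseudocounts of 1 and 100, averaging all probe sets of a gene, testing without the filter, a replicate block, only the compared groups, the Gapdh ratio as a covariate, leaving out the 5 arrays with a ratio above 2, and leaving out each array in turn. Equal replicate numbers were not taken to pair arrays. Deviations from the group mean correlated at 0.0412 on average over 82 same-number pairs and at -0.0221 over 152 others. Of these, 26 and 28 pairs correlated above 0.1. Whether some groups share a batch by replicate number was not tested. The number of arrays limits the precision. No 2 arrays held identical values.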

Additional observations from a re-analysis of the deposited data

Results flagged for a closer look

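Nup210 differed between emerin KO and control in its change from day 0 to day 3, by an interaction term of 1.34 ± 0.33 on the log2 scale (limma, adjusted p 0.033). The control arrays went from 588 and 713 to 222 and 258, and the emerin KO arrays from 658 and 868 to 729 to 790. The call ended when 7 of the 9 arrays were left out, each in turn (1.15 to 1.47, adjusted p 0.060 to 0.14), when the Gapdh ratio was a covariate (0.98, 0.47) and when the model held just these 4 groups (1.34, 0.054). The part of RNA quality, cell types and mouse line was not tested. Groups of 2 or 3 arrays are too small for an outlier test, so none was made.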

How the results depend on the processing

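Of 83 calls of the 16 members described by array, 48 held in every alternative run and 53 with each array left out. The calls from day 0 of Nup107, Kpna1, Kpna2, Kpna3, Xpo6 and Rcc1 held in all. Kpna3 reversed between emerin KO and control on day 3 with the Gapdh ratio as a covariate (0.32, adjusted p 0.83). That covariate gave 16 members called in emerin KO from day 0 to day 3 (25 without it), and 0 between emerin KO and control on day 3 (11), on day 4 (1) and in the emerin KO day 3 interaction (1). Fitting only the groups compared gave 0 for emerin KO against control on day 4 and for that interaction, and 3 for lamin A/C KO from day 3 to day 4 (0). The last became 1 with a pseudocount of 100 and 1 without the arrays of high Gapdh ratio, an omission that gave 0 for emerin KO against control on day 4 and removed every emerin KO day 3 array, so that comparison was not run. The mean of all probe sets gave 1 for emerin KO from day 3 to day 4 (0) and 2 against control on day 4, and quantile normalization gave 1 for emerin KO against control on day 0 (0).

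Leaving out single arrays gave 11 to 16 members for control from day 0 to day 3 (17), 2 to 15 for emerin KO against control on day 3, 0 to 4 on day 4 (0 without control day 4 replicate 1, 4 without emerin KO day 4 replicate 2), 0 to 1 for lamin A/C KO against control on day 0 and for the lamin A/C KO day 4 interaction (1 without control day 0 replicate 1, 0 otherwise), and 0 to 2 for the emerin KO day 3 interaction. The replicate block gave 2 members for emerin KO against control on day 4 (1), moved no other count of members by over 1.5 times, and ended 3 of the 83 calls. Median scaling moved the median of all genes by over 0.1 in 6 comparisons (-0.12 to 0.18). The counts of members in this section are given without the share of all genes called in the same run, which changes too. From day 0 to day 3 in emerin KO that share went from 46.1% to 25.2% with the Gapdh ratio as a covariate. The counts alone therefore say nothing particular to the members. Leaving out 1 array of a group of 2 leaves 1 array, and its spread is then taken from the other groups. Groups of 2 or 3 arrays limit what could be called, and signals under 100 give only bounds.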
